A study of Homo sapiens with 6 samples.

Results

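The genes examined were 40 genes of the hypoxia response and of glycolysis, chosen by name. Of these, 39 were paired with at least 1 probe set that names a single gene, and 34 reached a log2 level of 5 in at least 1 pool, the level from which a gene is called detected here, out of 19752 genes represented on the array. Where a gene had several probe sets, the one whose mean over all 6 arrays was highest stood for it. The set held 16 glycolysis genes, of which 14 were detected, and 24 genes of signalling by the hypoxia-inducible factor (HIF) and of its other targets, of which 20 were detected.

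All samples were xenografts, grown from the human colorectal adenocarcinoma cell line HT-29 on both sides of Balb/c (nu/nu) mice that were 6 to 8 weeks old at injection. These athymic hosts lack mature T cells but keep their own vessels, blood, connective tissue and muscle. The control pool came from tumours labelled as control. The treated pool came from tumours heated for 30 min by modulated electro-hyperthermia, in which an electromagnetic field warms the tumour, on day 18 and collected 4 h later, and the opposite pool came from the unheated tumours on the other side of those treated animals. Tumour tissue was macrodissected, and each group was a single pool hybridised to 2 one-colour human arrays, so that each group is 1 sample of 1 cell line; the number of animals in a pool is not given in the sources used here. The values carry no replicate check between animals, no test between conditions was made, and every SD is taken over a pool's 2 technical arrays. The 3 comparisons (treated minus control, treated minus opposite, opposite minus control) share pools and are not independent of each other.

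Cells sense oxygen through prolyl hydroxylases of the EGLN family, which mark the HIF alpha subunits for destruction by the VHL ubiquitin ligase when oxygen is present. When oxygen is short the alpha subunits persist, pair with ARNT and bind promoters and enhancers that carry the hypoxia response element, whose core reads ACGTG or GCGTG. The targets raise glucose uptake and glycolysis and slow the oxidation of pyruvate in mitochondria. They also encode secreted factors that recruit vessels and enzymes that modify collagen or buffer pH. Solid tumours commonly hold poorly perfused regions in which this programme runs, and the HIF1A protein is controlled mainly after transcription, so its mRNA need not follow the activity of the factor.

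Arrays of the same pool were close to each other. Over the 12992 probe sets that reached 5 in a pool, the median absolute difference (log2) was 0.050 to 0.059 for the 2 arrays of one pool and 0.142 to 0.168 for arrays of different pools. All 7 heat shock genes used as a check of the treatment were above control in the treated pool, by 1.09 (HSP90AA1) to 3.86 (HSPA6) on the log2 scale. In the unheated opposite pool HSPA6 (0.965) and CRYAB (1.09) also lay above control by the size rule, both from control levels below 5, and BAG3 differed by 0.42. Of 14 colon epithelium markers 10 were detected, with EPCAM at 12.38 and KRT20 at 12.14 in the control pool, while CDX1 and GPA33 lay at the lowest value of the table, 2.37, on every array. The detected ones differed in treated minus control from -0.64 for TFF3, below 5 in the treated pool, and -0.59 for MUC1 to 0.27 for KRT20. MUC1 and TFF3 were lower by the size rule, and MUC1 also in treated minus opposite (-0.53). Some markers listed for other cell types differed between the pools, and others did not. The summed linear signal of 10 fibroblast and matrix markers (4 detected) was 380 to 418 on the control arrays, 818 to 829 on the treated and 689 to 705 on the opposite arrays, and that of 10 skeletal muscle markers (4 detected) was 261 to 269, 326 to 335 and 274 to 275. In treated minus control COL1A1 (0.67), VIM (1.14) and TAGLN (1.66) were higher and FN1 was flat (0.01). Of the muscle markers ACTA1 (2.17, from a control level below 5) and MYL11 (1.60) were higher, TNNT3 was flat (0.06) and TNNT1 was lower (-0.45). Of the endothelial list 1 of 8 genes was detected (FLT1), with CDH5 and EMCN at the lowest value of the table, of the leukocyte list 1 of 8 was (LYZ), and of the red blood cell and adipose lists 0 of 4 and 0 of 6 were. The arrays are human and the host cells are mouse, and how far the probe sets read mouse transcripts was not tested. These lists are therefore no measure of host cell content. The median of 40 spike-in control probe sets differed by 0.105 for treated minus control, 0.33 for treated minus opposite and -0.18 for opposite minus control. Their part in the results below was not tested.

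Most of the hypoxia and glycolysis genes were slightly lower in the heated tumours than in control tumours, and few differed by much. In treated minus control, 27 of 34 detected genes were lower on all 4 array pairs and 5 were higher. Over all 7202 genes detected in either pool these shares were 40.5% and 34.7%, so most genes separated by this measure. By the size rule, which asks for pool means at least 0.5 apart (1.41-fold), no overlap of the arrays and both arrays of the higher pool at or above 5, 5 of the 34 were lower and 0 were higher, against 2.86% and 4.07% of all detected genes. At 2-fold (a log2 difference of 1) 0 of the 34 passed in either direction, where 0.0972% and 0.625% of all genes did. In bulk tumour RNA, fewer cells that express a gene and less RNA per cell cannot be told apart.

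In treated minus opposite, 19 of 33 detected genes were lower without overlap and 6 were higher, against 33.2% and 38.6% of 7153 genes (with the arrays scaled on their spike-in controls, 27 and 4 of the genes against 69% and 13.1% of all). By the size rule 3 were lower and 0 higher, against 1.82% and 3.37% (with that scaling 7 and 0, against 6.27% and 1.13%), and at 2-fold 0 passed, against 0.0559% and 0.28%. In opposite minus control, 16 of 34 were lower and 13 higher without overlap, against 42.4% and 34% of 7180 genes (with the spike-in scaling 8 and 25 of the genes against 17.4% and 65.7% of all, whose shares were 35.7% and 42.3% with equal array medians), so in the values as deposited the genes' shares were near those of all genes. The size rule there called 5 lower and 0 higher, against 4.29% and 2.41% (with the spike-in scaling 1 and 0, against 1.28% and 7.81%), and at 2-fold 0 passed, against 0.167% and 0.237%. The median difference of the 20 detected HIF genes was -0.29 in treated minus control, -0.11 (19 genes) in treated minus opposite and -0.0003 in opposite minus control, and that of the 14 glycolysis genes was -0.14, -0.095 and -0.034. The median of all detected genes was -0.0155, 0.0135 and -0.019. The spike-in scaling moved the median of all genes to -0.18 in treated minus opposite and 0.16 in opposite minus control, and turned the glycolysis median in the latter to 0.14. Relative to the median of all genes, the glycolysis median was -0.12, -0.11 and -0.0145 and the HIF median -0.28, -0.12 and 0.019.

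**Figure D1:**
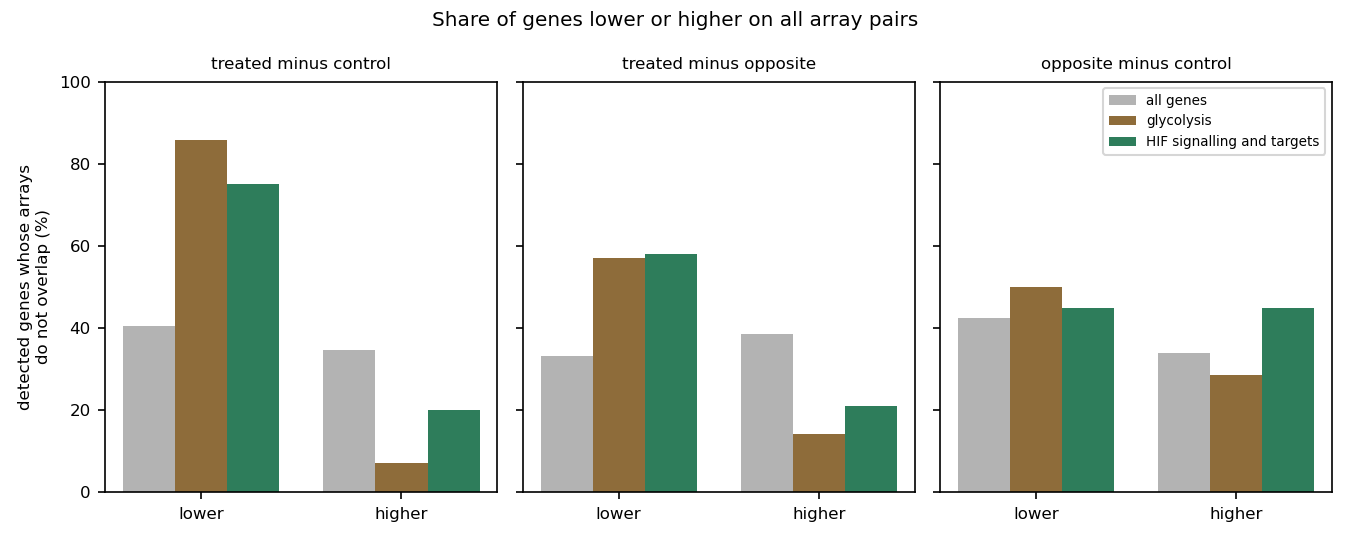
Bars give the percent of detected genes whose 2 arrays in the first-named pool lie entirely below (lower) or above (higher) the 2 arrays of the second, for all genes (grey), the 14 glycolysis genes (brown) and the HIF genes (green), in 3 panels for the 3 comparisons. In treated minus control 85.7% of glycolysis and 75% of HIF genes were lower against 40.5% of all genes, and in opposite minus control the shares were 50% and 45% against 42.4%. With the spike-in scaling, not plotted, 8 of the 34 genes and 17.4% of all genes were lower in opposite minus control.

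Glucose entry and the points at which glycolysis is steered gave mixed values. SLC2A1, the main glucose transporter of epithelial tumours, read 7.77 and 7.76 on the control arrays, 7.84 and 7.78 on the treated and 7.79 and 7.76 on the opposite arrays, a difference of 0.04 in treated minus control. PDK1 is the kinase that slows pyruvate oxidation in mitochondria by switching off pyruvate dehydrogenase. It read 8.14 and 8.20 in control, 7.56 and 7.65 in treated and 7.73 and 7.88 in opposite tumours. The treated arrays were the lowest and the control arrays the highest without overlap, and PDK1 in the treated pool was 1.48-fold below control (-0.57) and differed by -0.37 in opposite minus control. PFKFB3, which makes the activator of phosphofructokinase, read 8.56 on both control arrays, 8.37 and 8.39 on the treated and 7.88 and 7.91 on the opposite arrays. Here the unheated tumours of the treated animals were the lowest, 1.59-fold below control (-0.67), and the treated pool lay between, at -0.18 from control and 0.49 from the opposite pool. The opposite minus control difference of PFKFB3 misses 0.5 with the spike-in scaling.

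On the probe sets used, the enzymes of the pathway were nearly all a little lower in the treated pool than in control. Of 11 enzymes, all detected, 10 were below control without overlap in the treated pool (40.5% of all genes were) and HK1 (0.01, or -0.0023 with the spike-in scaling) overlapped, with a median difference of -0.12, and 1 passed the size rule. That one was ALDOC, the brain-type aldolase and a known hypoxia target, which read 6.33 and 6.30 in control, 5.65 and 5.89 in treated and 6.27 and 6.45 in opposite tumours. Only the treated arrays stood apart, 1.46-fold below control (-0.55) and 1.51-fold below the opposite pool (-0.59). Without the first treated array both ALDOC differences miss the minimum of 0.5.

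PGK1, which forms ATP in the payoff phase of glycolysis, read 11.53 and 11.51 in control, 11.25 and 11.22 in treated and 11.61 and 11.58 in opposite tumours. It was lowest in the treated and highest in the opposite pool, with differences of -0.28 from control and -0.36 from the opposite pool. LDHA, which turns pyruvate into lactate, read 12.74 and 12.76 in control, 12.64 on both treated arrays and 12.86 on both opposite arrays, the same order with smaller steps (-0.11 and -0.22). The remaining enzymes differed from control in the treated pool by -0.16 for TPI1, GPI and ALDOA and by -0.035 for ENO1, with HK2 at -0.12, PGAM1 at -0.066 and PKM at -0.04. Those of ENO1 and PKM were smaller than the median absolute difference between arrays of one pool, 0.05 to 0.059. In treated minus opposite 7 of the 11 were lower without overlap (33.2% of all genes) and HK1 was higher (0.09, turning to -0.10 with the spike-in scaling). In opposite minus control 5 were lower and 4 higher (42.4% and 34% of all genes), none by more than 0.16 on the probe sets used. A second detected ENO1 probe set read 6.20 in control, 6.33 in treated and 7.18 in opposite tumours. It differed by 0.98 in opposite minus control, -0.85 in treated minus opposite and 0.13 in treated minus control. With the spike-in scaling all 11 enzymes lay above control in the opposite pool, from 0.019 for TPI1 to 0.28 for LDHA.

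**Figure D2:**
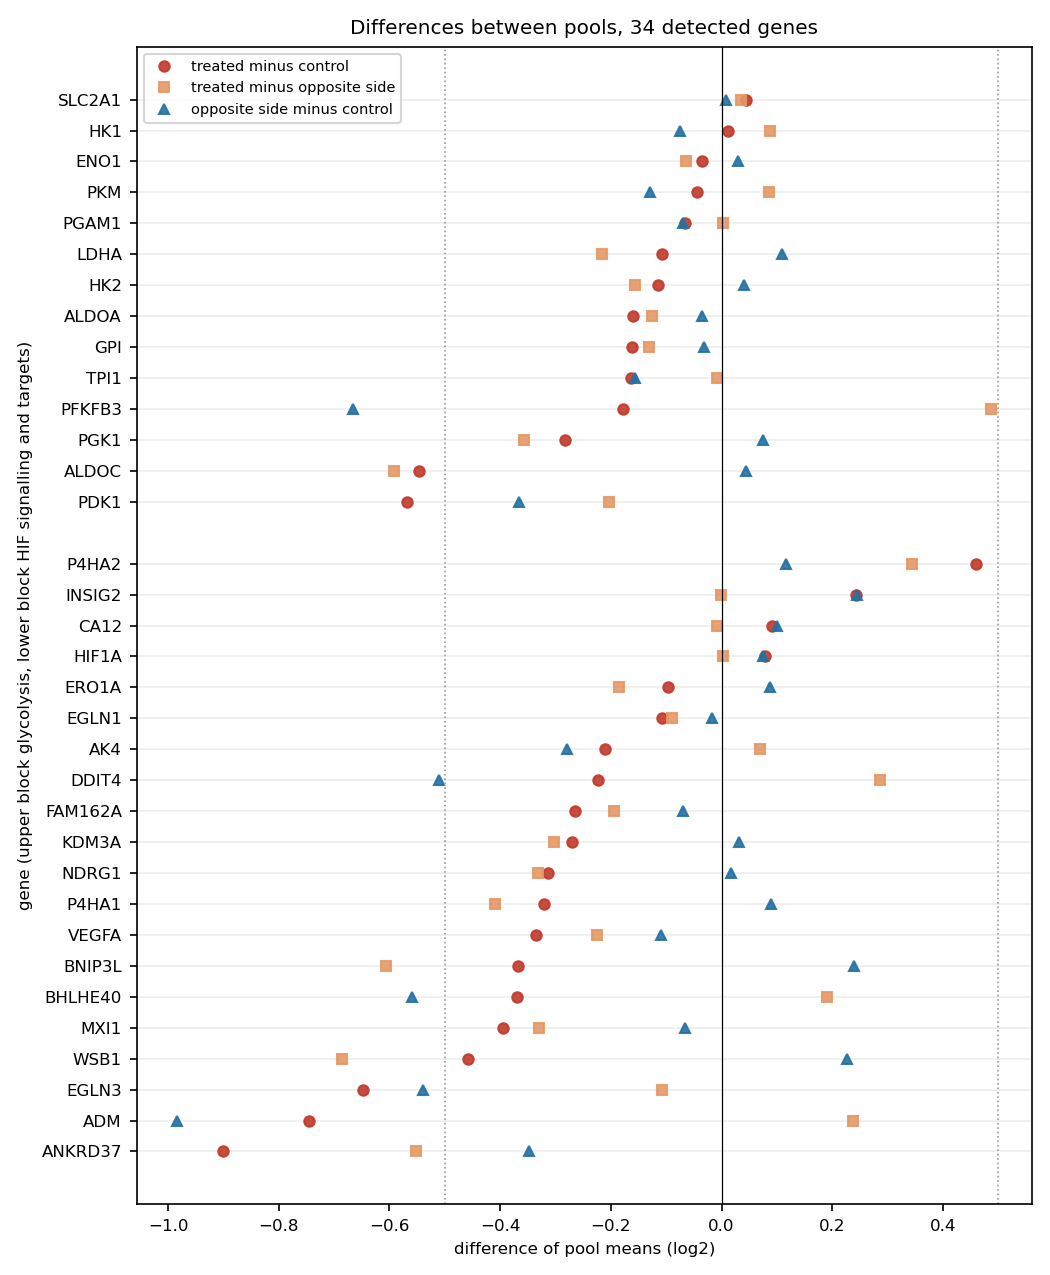
Differences of pool means (log2, horizontal axis) for the 34 detected genes, 14 glycolysis genes above and 20 HIF genes below, each block ordered by treated minus control (circles), with treated minus opposite as squares and opposite minus control as triangles. Dotted lines mark the minimum difference of 0.5. Circles lie mostly left of 0, from -0.90 for ANKRD37 to 0.46 for P4HA2, while triangles lie on both sides.

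Of the oxygen-sensing components, the factor itself differed little and one of its hydroxylases was lower on the probe set used. HIF1A mRNA read 8.26 and 8.30 in control, 8.40 and 8.32 in treated and 8.34 and 8.37 in opposite tumours, a difference of 0.08 from control in both pools of the treated animals. EGLN1, the principal hydroxylase that acts on HIF1A, differed by -0.11 in treated minus control with overlapping arrays. EGLN3, a hydroxylase whose own gene is a HIF target, read 7.43 and 7.51 in control, 6.85 and 6.79 in treated and 6.94 and 6.92 in opposite tumours. Both pools of the treated animals were below control without overlap, by 1.57-fold in the treated (-0.65) and 1.45-fold in the opposite pool (-0.54). A second EGLN3 probe set, differed by -0.05 and 0.15, and with the mean of both probe sets the differences were -0.35 and -0.20, short of the size rule. The opposite difference also misses it without the second control array and with the spike-in scaling.

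Both detected secreted factors were below control without overlap in the treated pool, where 40.5% of all genes were. ADM, which encodes the vasodilator adrenomedullin, read 9.37 and 9.36 in control, 8.62 on both treated arrays and 8.37 and 8.395 on the opposite arrays. The 3 pools did not overlap, and ADM was 1.68-fold below control in the treated (-0.75) and 1.98-fold below it in the opposite pool (-0.98), the largest opposite minus control difference among the 34 genes. VEGFA, the main vessel growth factor induced by hypoxia, read 10.33 and 10.32 in control, 9.93 and 10.05 in treated and 10.23 and 10.20 in opposite tumours. The treated arrays were the lowest, at -0.34 from control and -0.23 from the opposite pool, while the opposite pool stood at -0.11 from control (0.07 with the spike-in scaling). Of the carbonic anhydrases, which handle acid at the cell surface, CA12 read 9.23 and 9.25 in control and 9.33 to 9.35 on the other 4 arrays, and CA9 was paired with no probe set in the annotation used and was not analysed here.

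Among targets that act in mitochondria, BNIP3L, a receptor for the removal of mitochondria, read 8.38 and 8.52 in control, 8.06 and 8.10 in treated and 8.71 and 8.66 in opposite tumours. The order was treated, control, opposite without overlap, with BNIP3L 1.52-fold below the opposite pool (-0.61, or -0.45 on the mean of its 2 detected probe sets) and at -0.37 from control. FAM162A, a mitochondrial protein gene induced by HIF, differed by -0.26 from control and -0.20 from the opposite pool, and the mitochondrial adenylate kinase AK4 by -0.21 from control and 0.07 from the opposite pool (-0.12 with the spike-in scaling). The collagen prolyl hydroxylases went apart. P4HA1, a catalytic subunit, read 8.56 and 8.52 in control, 8.26 and 8.19 in treated and 8.66 and 8.60 in opposite tumours, whereas its paralogue P4HA2 read 7.11 and 7.10, 7.52 and 7.61, and 7.22 on both opposite arrays. P4HA1 was lowest in the treated pool (-0.32 from control and -0.41 from the opposite pool) and P4HA2 highest there (0.46 and 0.34), the one gene of the 34 with the treated pool above both others without overlap. Over all detected genes 21% had that order. ERO1A, the oxidase that forms disulfide bonds in the endoplasmic reticulum, differed by -0.10 and -0.19.

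All 3 transcription and chromatin genes were below control without overlap in the treated pool, where 40.5% of all genes were. MXI1, which opposes MYC, read 9.07 on both control arrays, 8.68 and 8.66 on the treated and 9.002 and 9.003 on the opposite arrays, and differed by -0.40 from control and -0.33 from the opposite pool. KDM3A, a histone H3 demethylase, read 8.22 and 8.19 in control, 7.97 and 7.90 in treated and 8.24 on both opposite arrays, again with only the treated arrays low (-0.27 and -0.30). BHLHE40, a repressor of the basic helix-loop-helix family, read 8.995 and 8.94 in control, 8.61 and 8.59 in treated and 8.43 and 8.38 in opposite tumours. Here the opposite pool was the lowest, 1.47-fold below control (-0.56), and the treated pool stood at -0.37. With the spike-in scaling the opposite minus control difference of BHLHE40 was -0.385 and missed the minimum of 0.5.

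Of the remaining targets, DDIT4 was lowest in the opposite pool, WSB1 and NDRG1 in the treated pool and INSIG2 in the control pool. DDIT4, an inhibitor of mTORC1 that answers to several stresses, read 9.18 and 9.16 in control, 8.98 and 8.92 in treated and 8.67 and 8.65 in opposite tumours, lowest in the opposite pool at 1.42-fold below control (-0.51) and at -0.22 in the treated pool. The DDIT4 difference in opposite minus control was -0.48 with equal array medians and -0.34 with the spike-in scaling, both short of 0.5. WSB1, a substrate receptor of a ubiquitin ligase, read 10.12 on both control arrays, 9.70 and 9.61 on the treated and 10.33 and 10.36 on the opposite arrays. It was lowest in the treated pool, 1.61-fold below the opposite pool (-0.69) and at -0.46 from control. NDRG1, a stress-inducible gene used as a hypoxia marker, read 11.40 and 11.44, 11.12 and 11.09, and 11.45 and 11.42 in control, treated and opposite tumours, with only the treated arrays apart (-0.31 and -0.33). INSIG2, which restrains cholesterol synthesis, was 0.24 above control in both pools of the treated animals. Its control arrays read 7.04 and 6.77, and the treated minus control difference of INSIG2 was 0.38 without the first and 0.11 without the second.

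ANKRD37, an ankyrin repeat protein gene that is a direct HIF1A target, read 5.07 and 5.16 in control, 3.99 and 4.44 in treated and 4.77 on both opposite arrays. Its treated minus control difference of -0.90 was the largest of the set, but it reached 5 in the control pool alone, so it could enter the counts only by being lower elsewhere, and against the level of 5 its fold is no more than a lower bound of 1.08. Without it 26 of 33 genes were below control without overlap in the treated pool, and 4 by the size rule. The 2 treated arrays also differed from each other (SD 0.32).

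**Figure D3:**
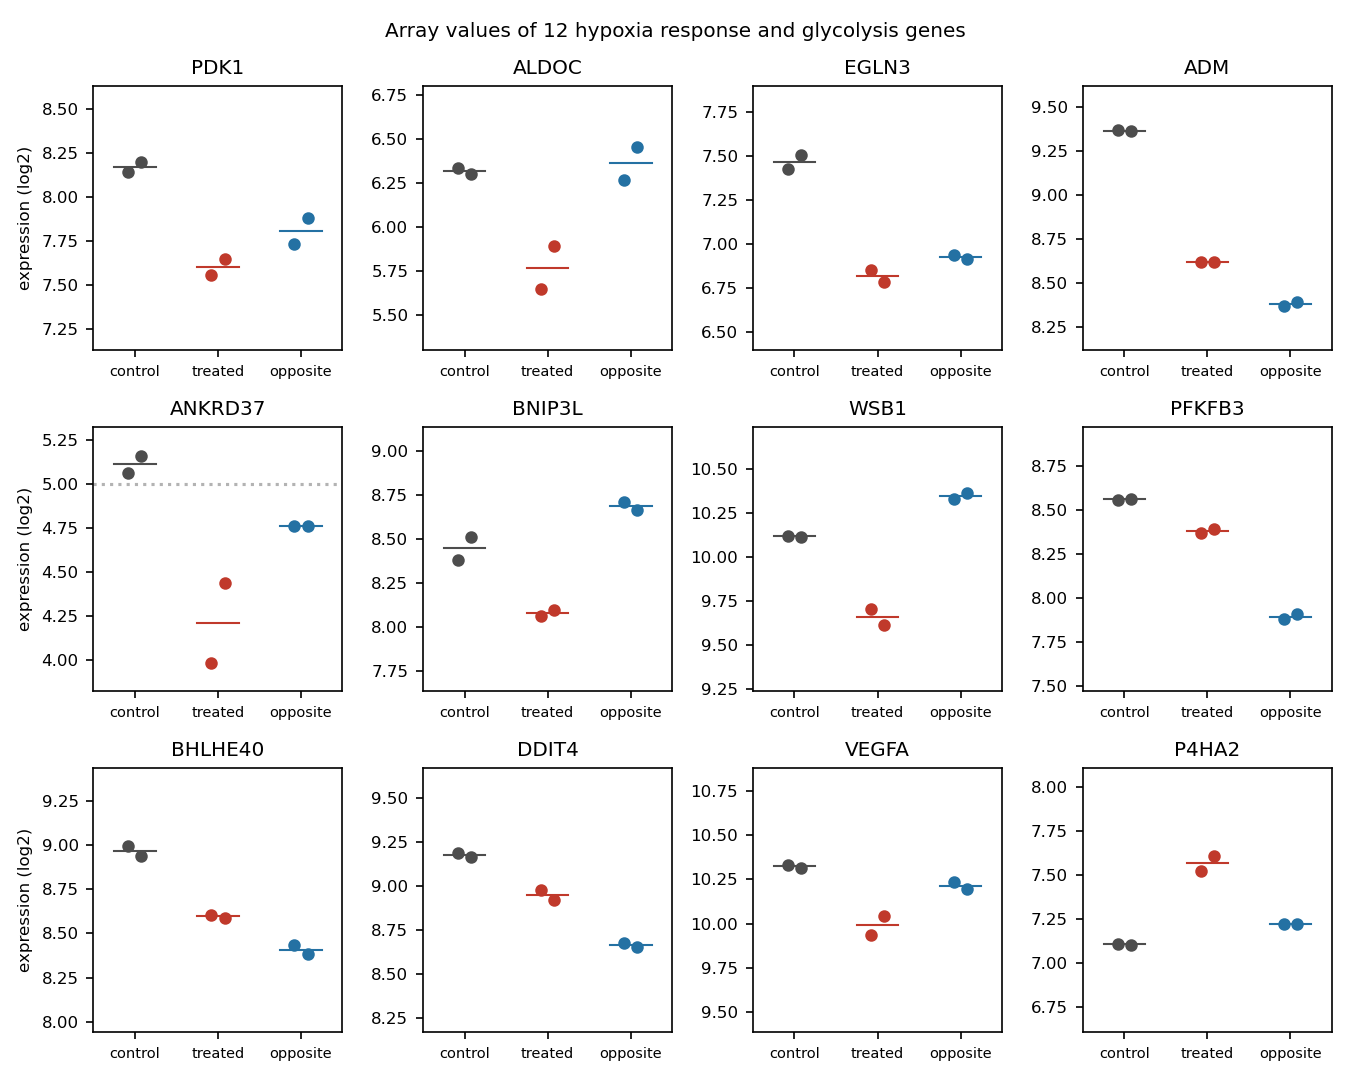
Log2 expression (vertical axis, each panel spanning 1.5 units) of 12 genes on the 2 arrays (points) of the control, treated and opposite pools, with bars at the pool means. The 10 genes past the size rule in any comparison are shown with VEGFA and P4HA2; the dotted line in the ANKRD37 panel is the detection level of 5. ALDOC, BNIP3L and WSB1 are low in the treated pool alone, ADM, PFKFB3, BHLHE40 and DDIT4 are lowest in the opposite pool, and P4HA2 is highest in the treated pool.

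Ranking the pools for each gene separated these patterns. In 19 of the 34 genes (55.9%) the treated arrays lay below all 4 others, against 20.5% of 7265 genes detected in any pool. They were 8 of the 14 glycolysis genes (PDK1, HK2, GPI, ALDOA, ALDOC, PGK1, ENO1 and LDHA) and 11 of the 20 HIF genes (EGLN3, VEGFA, BNIP3L, FAM162A, P4HA1, ERO1A, KDM3A, MXI1, NDRG1, ANKRD37 and WSB1). In 9 of the 34 (26.5%) the opposite pool was the highest, against 17.7% of all genes, and these 9 (HK2, PGK1, ENO1, LDHA, BNIP3L, P4HA1, ERO1A, KDM3A and WSB1) were all among the 19. In 5 genes (14.7%, against 22.8% of all) the opposite arrays were the lowest, namely PFKFB3, HK1, ADM, BHLHE40 and DDIT4. The control pool was the highest in 15 genes (44.1%, against 27%). ANKRD37 is among the 19 and the 15, though it reached 5 in the control pool alone. Without it the treated pool was lowest in 18 of 33 genes. A second ENO1 probe set was lowest in the control and highest in the opposite pool. The ranking was not repeated with the spike-in scaling, with which 69% of all genes were lower in treated minus opposite.

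The HIF response element is a known feature of many, not all, of these genes. Promoters of 6 of them that hold its core are shown, 4 with the treated pool lowest and 2 with the opposite pool lowest. Each is the RefSeq window of 300 bases, 250 before and 50 after the annotated start, in GRCh38.p14, read 5′ to 3′ on the gene's strand. Capitals mark ACGTG or GCGTG on either strand (CACGT or CACGC when read on the opposite strand), and CACGTG holds ACGTG on both strands and is counted once. The first 4 are ANKRD37 at chr4:185396591-185396890 (plus strand), ALDOC at chr17:28576846-28577145 (minus strand), WSB1 at chr17:27293864-27294163 (plus strand) and PGK1 at chrX:78103998-78104297 (plus strand).
ANKRD37: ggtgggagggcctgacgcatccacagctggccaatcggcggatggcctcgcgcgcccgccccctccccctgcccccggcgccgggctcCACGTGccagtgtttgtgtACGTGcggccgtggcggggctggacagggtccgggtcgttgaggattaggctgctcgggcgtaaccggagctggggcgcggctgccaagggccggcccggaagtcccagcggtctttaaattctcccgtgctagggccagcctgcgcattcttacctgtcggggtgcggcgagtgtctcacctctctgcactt
ALDOC: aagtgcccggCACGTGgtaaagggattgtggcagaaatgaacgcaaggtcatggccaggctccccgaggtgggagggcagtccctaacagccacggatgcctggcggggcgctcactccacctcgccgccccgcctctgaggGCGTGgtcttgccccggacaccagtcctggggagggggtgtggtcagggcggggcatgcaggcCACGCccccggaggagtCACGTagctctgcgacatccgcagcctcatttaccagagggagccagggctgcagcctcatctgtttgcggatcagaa
WSB1: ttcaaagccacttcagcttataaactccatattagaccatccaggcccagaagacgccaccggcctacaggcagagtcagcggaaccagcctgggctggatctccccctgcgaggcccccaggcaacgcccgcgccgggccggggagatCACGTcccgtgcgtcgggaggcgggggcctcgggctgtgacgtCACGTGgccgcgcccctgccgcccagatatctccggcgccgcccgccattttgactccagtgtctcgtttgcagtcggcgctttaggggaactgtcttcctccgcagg
PGK1: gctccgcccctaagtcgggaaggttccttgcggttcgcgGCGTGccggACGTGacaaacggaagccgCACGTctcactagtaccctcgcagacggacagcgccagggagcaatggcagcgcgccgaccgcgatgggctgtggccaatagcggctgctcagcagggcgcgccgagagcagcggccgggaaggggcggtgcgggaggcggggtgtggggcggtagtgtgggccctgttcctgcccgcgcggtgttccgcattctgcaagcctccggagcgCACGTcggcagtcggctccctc
The window of ANKRD37 held 2 marked stretches, at 162 and 143 bases before the start, and that of WSB1 held 2, at 101 and 58 bases before it. ALDOC held 4, of which 2 read ACGTG on either strand, and PGK1 held 4, of which 3 did.

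The other 2 are ADM at chr11:10304823-10305122 (plus strand) and BHLHE40 at chr3:4979187-4979486 (plus strand).
ADM: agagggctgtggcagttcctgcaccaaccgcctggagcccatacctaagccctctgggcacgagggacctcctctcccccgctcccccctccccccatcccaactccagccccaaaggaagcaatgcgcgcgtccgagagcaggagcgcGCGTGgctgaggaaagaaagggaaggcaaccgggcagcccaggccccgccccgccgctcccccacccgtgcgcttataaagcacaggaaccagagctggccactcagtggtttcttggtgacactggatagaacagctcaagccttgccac
BHLHE40: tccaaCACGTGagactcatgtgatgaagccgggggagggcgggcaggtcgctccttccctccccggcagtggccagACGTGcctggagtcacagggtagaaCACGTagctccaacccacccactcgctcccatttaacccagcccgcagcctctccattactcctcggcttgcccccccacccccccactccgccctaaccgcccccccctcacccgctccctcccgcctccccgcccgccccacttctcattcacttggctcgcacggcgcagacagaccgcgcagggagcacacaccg
The ADM window held 1 GCGTG, 101 bases before the start, and 0 ACGTG, and the BHLHE40 window held 3 ACGTG, the nearest 149 bases before the start. Of the 40 genes, 36 had a window in the table, and 24 of these 36 (66.7%) had ACGTG in at least 1 window, compared with 24.9% of all 27305 genes and 28.5% of protein-coding genes. For GCGTG the shares were 63.9%, 40.6% and 50.4%. Either was present in 33 of the 36 (91.7%), against 52.4% of all genes and 61.9% of protein-coding genes. The windows of EGLN3, P4HA2 and PGAM1 held neither. Many of the genes are in the set because they are known HIF targets, and a match describes letters in a window, not binding.

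Where a gene had several detected probe sets, these mostly had the same sign. Of 13 genes with at least 2 detected probe sets, all probe sets of a gene had one sign in 9 for treated minus control (AK4, ALDOA, BNIP3L, EGLN3, ERO1A, FAM162A, TPI1, VEGFA and WSB1), in 10 for treated minus opposite and in 8 for opposite minus control. Over the 59 detected probe sets of the genes, 47 were below 0 in treated minus control, 45 in treated minus opposite and 26 in opposite minus control. The size of a difference depended on the probe set. Of the 4 detected WSB1 probe sets, 2 reached 5 in every pool and differed by -0.46 and -0.26 from control and by -0.69 and -0.71 from the opposite pool. The other two were below 5 in the treated pool, at 4.71 and 3.96, and one of these reached 5 in the opposite pool alone, so no size is drawn from them. The 4 PGK1 probe sets differed by -0.61, -0.28, -0.05 and 0.0005 from control and by -0.78, -0.36, -0.41 and -0.36 from the opposite pool. In opposite minus control the same 4 differed by 0.17, 0.075, 0.35 and 0.37. CA12 had 5, from -0.05 to 0.60 in treated minus control. Of the 34 genes 19 were represented by a probe set of the _s_at or _x_at kind, which can match several transcripts, and glycolytic enzymes have processed pseudogenes that such probe sets cannot always tell from the gene. The control probe sets of GAPDH, another glycolytic enzyme, gave -0.46 for its 5′ and -0.03 for its 3′ part in treated minus control, and those of ACTB gave 1.12 and 0.23. In treated minus opposite the 5′ and 3′ parts gave -0.45 and -0.03 for GAPDH and -0.16 and 0.08 for ACTB. In opposite minus control they gave -0.01 and 0.0005 for GAPDH and 1.275 and 0.15 for ACTB. The part of this in the differences of the other genes was not tested.

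**Figure D4:**
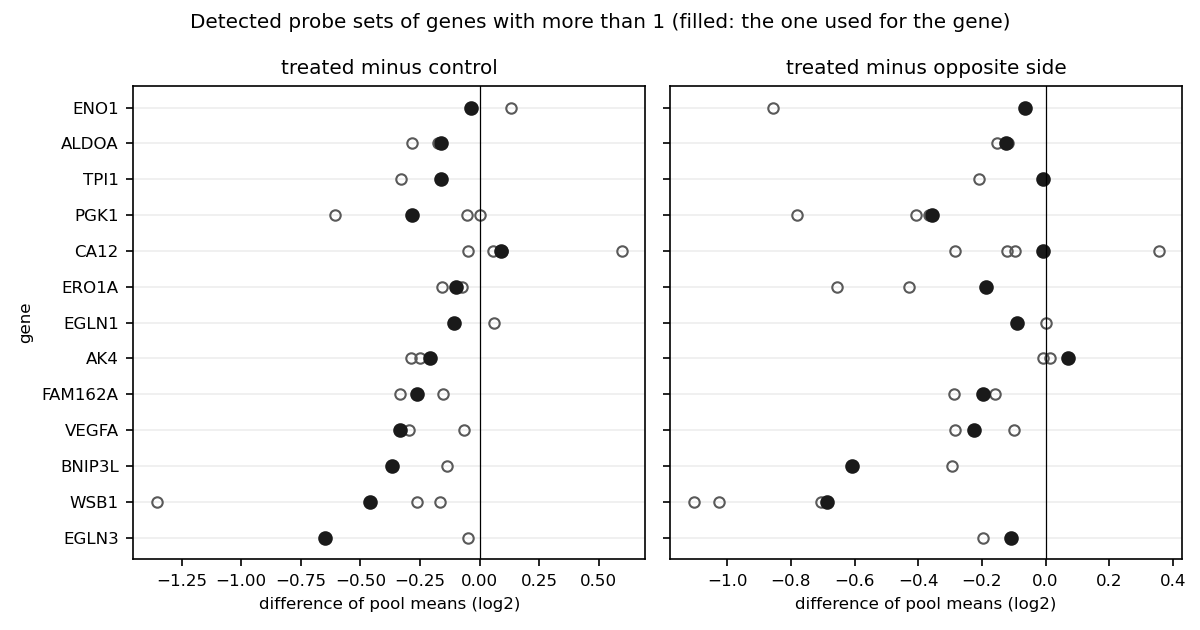
Differences of pool means (log2, horizontal axes) of every detected probe set of the 13 genes with more than 1, for treated minus control (left) and treated minus opposite (right); filled points are the probe sets that represent the gene. In the right panel the 2 WSB1 probe sets that reach 5 in every pool lie at -0.69 and -0.71, and the other two, below 5 in the treated pool, lie further left, and the 2 EGLN3 probe sets lie at -0.65 and -0.05 in the left panel.

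In all, 5 genes of the set were paired but not detected in any pool. BNIP3, a mitophagy gene related to BNIP3L, read the table's lowest value, 2.37, on every array, the lipid droplet gene PLIN2 at 2.69 and the glucose transporter SLC2A3 at 2.75 to 2.78. PFKFB4 (3.29 to 3.63) and ANGPTL4 (4.23 to 4.42), a secreted lipase inhibitor induced by hypoxia, were below 5 as well. No difference is drawn from these 5 genes. The 3 probe sets shared with other genes, 2 with SLC2A14 and SLC2A3 and 1 with INVS and WSB1, also lay below 5.

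Beyond the 40 genes, 102 further genes of the pathway were examined in 6 lists, of which 56 were detected in treated or control tumours. Of these 56, 1 was lower and 5 were higher by the size rule in treated minus control (2.86% and 4.07% of all genes), with a median of -0.017, near the -0.0155 of all genes. Among 10 detected HIF pathway components 0 passed in any comparison, where 1.82% to 4.29% of all genes passed in each direction. EPAS1, the second HIF alpha subunit (HIF2A), had the largest treated minus control difference, 0.25. Among 16 further HIF targets HILPDA, a lipid droplet gene closely tied to hypoxia, read 6.68 and 6.65 in control, 6.09 and 6.14 in treated and 6.06 and 5.92 in opposite tumours (-0.55 and -0.67 from control). CAV1, a membrane scaffold gene that is also abundant in stromal cells, was 0.88 above control in the treated and 0.60 above it in the opposite pool.

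The further HIF targets that differed between the 2 sides of the treated animals went in both directions. Of the 16, 3 were higher and 1 was lower by the size rule in treated minus opposite (3.37% and 1.82% of all genes). JMJD6, a nuclear hydroxylase, read 6.72 and 6.69 in control, 7.01 and 7.06 in treated and 6.14 and 6.05 in opposite tumours, 0.94 higher in the treated than in the opposite pool. The chemokine receptor CXCR4 (0.65) and ERRFI1 (0.57), a feedback inhibitor of EGFR, were also higher there, and SPAG4 was lower (-0.53). In opposite minus control JMJD6 (-0.61) and ERRFI1 (-0.52) were lower and the cyclin gene CCNG2 (0.65) higher. With HILPDA and CAV1, 3 of the 16 were lower and 2 higher by the size rule there (4.29% and 2.41% of all genes).

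Of 6 further detected glycolytic enzymes 0 passed the size rule in any comparison, where 1.82% to 4.29% of all genes passed in each direction. ENO2, the neuronal enolase and a HIF target, differed by -0.46 from control and -0.25 from the opposite pool in the treated tumours, while GAPDH differed by -0.03 and -0.03. Of 9 genes of lactate and pyruvate handling PDP1, the phosphatase that reverses the action of PDK1, was higher in the treated pool, at 5.20 and 5.06 against 3.93 and 4.10 in control and 4.45 and 4.26 in opposite tumours. Both other pools lay below 5 for PDP1, so the differences of 1.12 and 0.78 rest on values under the detection level. Of 9 genes of the pentose phosphate pathway and gluconeogenesis 0 passed (against the same 1.82% to 4.29%), with PGLS at -0.35 from control, FBP1 at -0.29 and PCK2 at -0.22.

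Of 6 other detected angiogenic factors 3 lay above control in the treated pool by the size rule, where 4.07% of all genes did. EDN1, the vasoconstrictor endothelin precursor, read 8.10 and 8.19 in control, 8.96 and 8.93 in treated and 8.06 on both opposite arrays, 0.80 above control and 0.88 above the opposite pool. PDGFB, which recruits pericytes, read 5.64 and 5.41, 6.33 and 6.29, and 5.42 and 5.62 in control, treated and opposite tumours, 0.78 and 0.79 higher in the treated pool. TGFA, a ligand of EGFR, was above control by 0.56 in the treated and 0.52 in the opposite pool. The other 3 detected factors of this list, VEGFB, PGF and PDGFA, differed by -0.27, -0.10 and -0.29 from control.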

How the data were processed

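The authors deposited log2 values of 54675 probe sets on 6 arrays, a scale inferred from their spread (2.374 to 14.507). GCRMA (background correction, quantile normalization and a summary per probe set) is named per the submitters' processing notes; its version is not given in the sources used here. Genes were assigned to probe sets from the platform annotation and RefSeq symbols (41097 with 1 gene, 1801 with several, 11777 unnamed), and a gene took its probe set with the highest mean. Arrays have no depth; their number limits the precision.

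Pool means, their differences and the counts described above were computed with Python 3.11.15, numpy 2.4.6, pandas 2.3.3 and matplotlib 3.10.9, and the size rule was tested on simulated data. With 1 pool per group no test was made. The genes and lists, thresholds and promoters shown were chosen with earlier results of these data known. Genes were named by rule: all 40, further pathway genes past the size rule and otherwise the largest differences of a list, and markers reaching 5. Alternatives were other detection levels and minimum differences, no agreement of arrays, linear averaging, 3 rescalings, 2 choices of probe set, and leaving out each array.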

Additional observations from a re-analysis of the deposited data

How the results depend on the processing

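Differences rest on 1 pool per group, so no alternative speaks to the spread between animals. No paired analysis was possible because the shared replicate numbers mark technical arrays of a pool and no result comes from a test. Of 13 gene differences past the size rule (10 genes), 9 passed under the spike-in scaling, 10 on the mean over detected probe sets and 12 with arrays set to the same median. Without the _x_at and _s_at probe sets, which leaves fewer genes, 7 passed, and the others had no detected probe set left. Where a value remained, 0 changed sign. The rule asks all array pairs to agree, so leaving out an array or averaging linearly could not change a sign. Single probe sets could differ in sign: in opposite minus control the second EGLN3 probe set gave 0.15, against -0.54 for the one used.

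With a minimum difference of 1 the counts of lower genes were 0 in all 3 comparisons, and with 0.3 they were 12 in treated minus control and 8 in treated minus opposite, with 1 and 2 higher. With the spike-in scaling 7 genes were lower in treated minus opposite and 1 in opposite minus control by the size rule; without overlap 3 were higher in treated minus control, and 8 lower and 25 higher in opposite minus control. Without the _x_at and _s_at probe sets 11, 9 and 7 were lower and 3, 3 and 8 higher without overlap in treated minus control, treated minus opposite and opposite minus control, and 1 was lower by the size rule in the last. Only 50 of 101 gene differences kept a value in that setting. Shares of all genes were not computed for it, for the minimum difference of 0.3 or for the mean over probe sets. Whether those counts exceed the shares of all genes is therefore not known. On the mean over probe sets 1 (ENO1) was higher by the size rule in opposite minus control.

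The glycolysis median in treated minus control was -0.13 with arrays set to the same median, -0.15 with the spike-in scaling and -0.084 without the _x_at and _s_at probe sets. In treated minus opposite it was -0.12, -0.28 and -0.18 under these 3 and -0.13 on the mean over probe sets. In opposite minus control it turned to 0.0015 with the same median and 0.14 with the spike-in scaling, and was -0.065 with quantile normalization and -0.0502 on the mean over probe sets; the cause was not tested. The HIF median in treated minus control was -0.27 at detection levels 4 and 6, -0.28 with the same median, -0.31 with quantile normalization, -0.31 with the spike-in scaling, -0.25 on the mean over probe sets and -0.11 without the _x_at and _s_at probe sets. In treated minus opposite it was -0.30 with the spike-in scaling and -0.0455 without those probe sets, and in opposite minus control 0.035 with the same median, 0.17 with the spike-in scaling and 0.047 without those probe sets.

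Leaving out each array in turn gave 5 to 5, 2 to 3 and 4 to 5 lower and 0 to 1, 0 to 1 and 0 to 0 higher genes by the size rule in treated minus control, treated minus opposite and opposite minus control; P4HA2 then passes in treated minus control without the first treated array and PFKFB3 in treated minus opposite without the second opposite array. Without overlap 27 to 28, 19 to 22 and 16 to 17 were lower and 5 to 6, 6 to 11 and 13 to 15 higher, the 11 without the second treated array and 10 without the first opposite array. Leaving out an array leaves fewer array pairs to agree, so apart from detection the counts without overlap could rise but not fall. Shares of all genes were not computed with an array left out. Glycolysis medians ran from -0.138 to -0.114, -0.095 to -0.0735 and -0.0555 to -0.0142, and HIF medians from -0.295 to -0.275, -0.147 to -0.0755 and -0.0325 to 0.0258.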
